A study of Mus musculus with 26 samples.

Results

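This account concerns serum response factor (SRF) and the genes of the contractile cytoskeleton that it is best known for switching on. The 10 genes were chosen by name and not by their values: Srf itself, the smooth muscle genes Acta2, Actg2, Tagln, Cnn1, and Myl9, the cytoplasmic actin gene Actb, the adhesion gene Vcl, and the tropomyosin genes Tpm1 and Tpm2. All 10 were found among the 52962 genes of the count table, and 9 of them passed the filter on low counts. Cnn1 did not pass and was not tested.

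The cells were brown preadipocytes of newborn mice with floxed insulin receptor (IR) and IGF1 receptor (IGF1R) genes, immortalised with SV40 T-antigen. Both receptors were inactivated with Cre adenovirus, which gave the double knockout (DKO) cells that all groups share. DKO cells then received, by retrovirus, intact human IR of the B isoform or the kinase-dead receptor K1030R. Others received the receptor ∆CT without its C-terminal tail, or JMO, which keeps only the juxtamembrane stretch inside the cell. The paper also lists an empty vector among the retroviruses, and infected cells were selected with hygromycin. The sample titles do not say whether the DKO libraries came from cells with the empty vector. All cells were starved of serum for 6 h, and IR, K1030R, ∆CT, and JMO cells were left without insulin or given 100 nM insulin for 15 min, while DKO cells were measured without insulin. Each of the 9 groups had 3 libraries, apart from ∆CT cells with insulin, which had 2. Each receptor was carried by a single selected cell line, so the replicates compare libraries of that line and not independently made lines, and the labels do not say whether the libraries came from separate cultures. The p-values therefore measure the spread between these libraries, which may be technical.

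SRF is a transcription factor that binds a short element called the CArG box. It works with partners of different kinds: the myocardin-related factors MRTF-A and MRTF-B, which are held back by monomeric actin and enter the nucleus when actin is assembled into filaments, and the ternary complex factors, which are phosphorylated by ERK and serve immediate early genes such as Fos. Cytoskeletal genes are mainly served by the MRTF arm, so that actin filaments feed back on the genes that build them. In the adipose lineage, high MRTF and SRF activity is associated with a myofibroblast-like or smooth muscle-like state, and its decline accompanies the rounding of cells that become adipocytes.

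The CArG boxes of 3 of the genes are shown first because they are the element by which SRF is recognised as the regulator of this group. RefSeq promoters on GRCm38.p6, which run from 250 bases before to 50 bases after the start site, were held for 7 of the 10 genes. Actg2, Actb, and Tagln had no entry. The 60-base windows read 5′ to 3′ on the strand of the gene, and capitals mark exact CArG boxes. The reverse complement of a box is again a box, so a search of 1 strand covers both.
Srf, chr17:46556200-46556259, minus strand: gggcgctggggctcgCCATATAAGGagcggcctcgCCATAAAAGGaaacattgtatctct
Vcl, chr14:20929148-20929207, plus strand: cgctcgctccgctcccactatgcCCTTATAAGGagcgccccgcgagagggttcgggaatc
Myl9, chr2:156775278-156775337, plus strand: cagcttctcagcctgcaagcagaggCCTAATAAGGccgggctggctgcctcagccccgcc

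The pair of boxes in Srf began 82 and 62 bases before the start site, the box of Vcl 227 bases before it, and that of Myl9 161 bases before it. An exact box was present in 535 of 32851 mouse promoters of this length (1.63%). With 1 letter of the 10 allowed to differ, 5 of the 7 promoters and 21.1% of all promoters held a box, and Acta2 and Tpm1 were among those 5. Tpm2 and Cnn1 had neither form in this window. A match describes the letters and does not show that the site was bound.

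Library totals ran from 17228982 to 24694828 counts. Levels are given as CPM, counts scaled to a library total of 1000000. Insr was at 23.8 ± 1.3 CPM (SD, n = 3) in DKO cells, with all other group means between 67.7 and 98.1 CPM. Its deposited counts may take in reads of the human receptor that resemble the mouse transcript, which was not tested. Igf1r ranged from 27.1 to 35.1 CPM over the 9 group means, so its transcript was still counted in DKO cells. By qPCR and immunoblot, the paper found neither IR nor IGF1R in these DKO cells. The preadipocyte markers Pdgfra and Pdgfrb carried most of a summed preadipocyte list of 787 to 892 CPM. Single markers of the list differed between lines. Pdgfra was higher in IR than in DKO cells by 0.76 on the log2 scale, and lower in K1030R than in IR cells by 0.72. The less abundant Ly6a, Cd34, Fabp4, Cebpb, and Pparg differed as well. The smooth muscle list summed to 42.3 to 59.3 CPM, with its defining markers Myh11 and Myocd below 1.5 CPM in group mean. Myod1, Myf5, Kcnj8, and Adgre1 had 0 counts in all libraries.

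Levels of the genes differed widely, as the plot of CPM in every library shows. Divided by the length of the longest coding transcript, Actb was the most abundant, with group means of 1370 to 1680 CPM per kb, followed by Acta2 at 150 to 288, Tpm1 at 126 to 153, Tpm2 at 89.4 to 111, and Vcl at 78.1 to 101 CPM per kb. Tagln was at 40.9 to 91.2, Myl9 at 27.1 to 48.5, and Srf at 7.1 to 11.2 CPM per kb. Actg2, the enteric smooth muscle actin, and Cnn1, calponin of differentiated smooth muscle, were near the limit of detection, with at most 0.729 and 0.163 CPM per kb. Actb shared 23.5% of its 31-base sequences with transcripts of 44 other genes, so its counts are uncertain, whereas no more than 1.39% was shared for any other of the 10 genes.

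**Figure D1:**
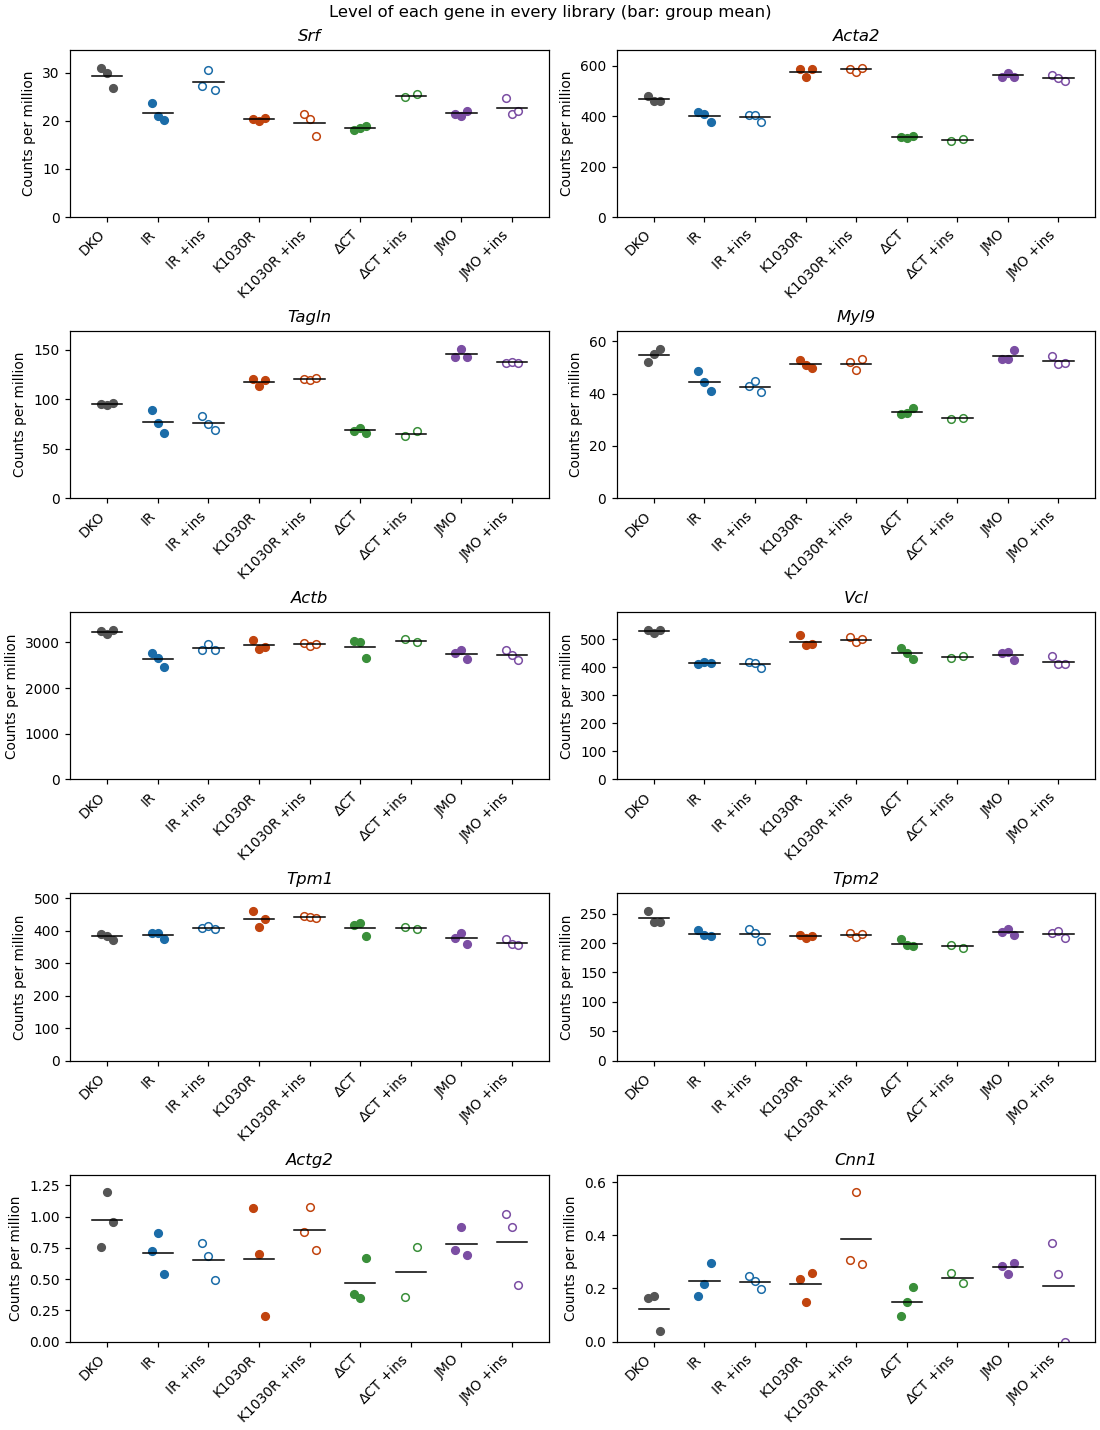
CPM of each of the 10 genes (y axis, linear and from 0) in all 26 libraries, by line and treatment (x axis). Filled points are libraries without insulin, open points are libraries with insulin, and black bars are group means. Without insulin, Acta2 stood at 377 to 416 CPM in IR cells and at 555 to 588 CPM in K1030R and JMO cells.

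The first comparison asked how the genes differed between cells with no receptor and cells with each form of the receptor, in the absence of insulin. Srf was lower in all 4 receptor lines than in DKO cells, by 0.43 to 0.65 on the log2 scale. Acta2 and Tagln moved in both directions: they fell in IR and ∆CT cells, whose receptors keep an active kinase, and rose in K1030R and JMO cells, whose receptors have none. Actb, Vcl, and Tpm2 were lower in all 4 lines, by at most 0.34. These comparisons share the same 3 DKO libraries, so agreement in direction between the lines is not independent.

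Calls were made with edgeR's quasi-likelihood test at a Benjamini-Hochberg adjusted p of 0.05 over all 15402 genes. Of the 9 genes tested, 7 were called lower and 0 higher in IR cells, where 24.1% of all genes were called lower and 25.6% higher. In K1030R cells 4 were called lower and 3 higher, against 20.4% and 21.2% of all genes. In ∆CT cells 8 were called lower and 1 higher, against 22.9% and 23.4%, and in JMO cells 4 were called lower and 2 higher, against 17.4% and 16.9%. The median log2 fold change of the 9 genes was -0.30 in IR, -0.14 in JMO, -0.11 in K1030R, and -0.48 in ∆CT cells, where the median over all genes was 0.01 in each. Against a minimum fold of 1.5, 1 of the 9 genes (Myl9) passed in ∆CT cells, where 6.29% of all genes did, and 0 passed in IR, K1030R, and JMO cells, where 6.89%, 5.29%, and 2.11% of all genes did.

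Srf (ENSMUSG00000015605, chromosome 17:46548329-46556175, minus strand, GRCm38), the factor itself, had 31.04, 30.01, and 26.91 CPM in the 3 DKO libraries. It had 23.7, 21.1, and 20.3 CPM in IR cells, 20.48, 20.03, and 20.60 CPM in K1030R cells, 18.1, 18.6, and 19.0 CPM in ∆CT cells, and 21.5, 21.1, and 22.1 CPM in JMO cells. The DKO libraries lay above all libraries of the other lines without insulin. The log2 fold change against DKO was -0.43 (SE 0.0731, adjusted p = 8.09e-06) in IR cells, -0.52 (SE 0.0747, adjusted p = 5.43e-07) in K1030R cells, -0.65 (SE 0.0749, adjusted p = 4.91e-09) in ∆CT cells, and -0.44 (SE 0.0728, adjusted p = 1.2e-05) in JMO cells. Among the receptor lines the levels were closer, and ∆CT cells were lower than IR cells by 0.23 (SE 0.0772, adjusted p = 0.0258). That call was lost with DESeq2 (adjusted p = 0.0597), with the compared groups alone (adjusted p = 0.0713), and without IR replicate 1 (adjusted p = 0.205) or ∆CT replicate 1 (adjusted p = 0.0905) or 2 (adjusted p = 0.0655).

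Acta2 (ENSMUSG00000035783, chromosome 19:34241090-34255590, minus strand), smooth muscle α-actin and the usual marker of myofibroblasts, had 479, 462, and 461 CPM in DKO cells. It had 416, 408, and 377 CPM in IR cells and 319, 312, and 320 CPM in ∆CT cells. In K1030R cells it had 586, 555, and 588 CPM, and in JMO cells 555, 573, and 557 CPM. The libraries fell into separate ranges with ∆CT lowest, then IR, then DKO, and with K1030R and JMO highest and overlapping each other. The log2 fold change against DKO was -0.22 in IR cells (SE 0.0337, adjusted p = 1.05e-06), -0.56 in ∆CT cells (SE 0.0339, adjusted p = 8.89e-16), 0.30 in K1030R cells (SE 0.0336, adjusted p = 3.12e-09), and 0.27 in JMO cells (SE 0.0336).

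Tagln (ENSMUSG00000032085, chromosome 9:45929619-45936058, minus strand) encodes transgelin, an actin-binding protein of smooth muscle also called SM22α. It had 95.5, 94.7, and 96.2 CPM in DKO cells, 89.3, 75.9, and 65.8 CPM in IR cells, and 68.3, 71.2, and 66.1 CPM in ∆CT cells. It had 121, 114, and 119 CPM in K1030R cells and 143, 151, and 142 CPM in JMO cells. All IR and ∆CT libraries lay below DKO and all K1030R and JMO libraries above it, and the 3 IR libraries spread more widely than those of any other group without insulin (SD 12). Against DKO, Tagln differed by -0.31 in IR (SE 0.0733, adjusted p = 0.00152), -0.48 in ∆CT (SE 0.0743, adjusted p = 1.86e-05), 0.30 in K1030R (SE 0.0716, adjusted p = 0.00183), and 0.61 in JMO cells (SE 0.0703, adjusted p = 8.65e-07). Fitted to the 2 groups alone, the difference in IR cells missed the threshold (adjusted p = 0.0641).

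Myl9 (ENSMUSG00000067818, chromosome 2:156775420-156781658, plus strand), the regulatory light chain that myosin kinase phosphorylates to start contraction, shared the low side of this pattern but not the high side. It had 52.1, 55.0, and 57.1 CPM in DKO cells, 48.5, 44.3, and 41.1 CPM in IR cells, and 32.0, 32.5, and 34.7 CPM in ∆CT cells. K1030R cells had 52.7, 50.9, and 49.8 CPM and JMO cells 53.3, 53.2, and 56.5 CPM, both within or near the DKO range. Myl9 was lower than in DKO by 0.29 in IR (SE 0.052, adjusted p = 1.34e-05) and by 0.73 in ∆CT cells (SE 0.0541, adjusted p = 1.66e-13), and the latter also passed the minimum fold of 1.5 with edgeR (adjusted p = 0.0209) but not with limma TREAT. In K1030R and JMO cells the log2 fold changes were -0.10 and -0.01 and did not pass the test.

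**Figure D2:**
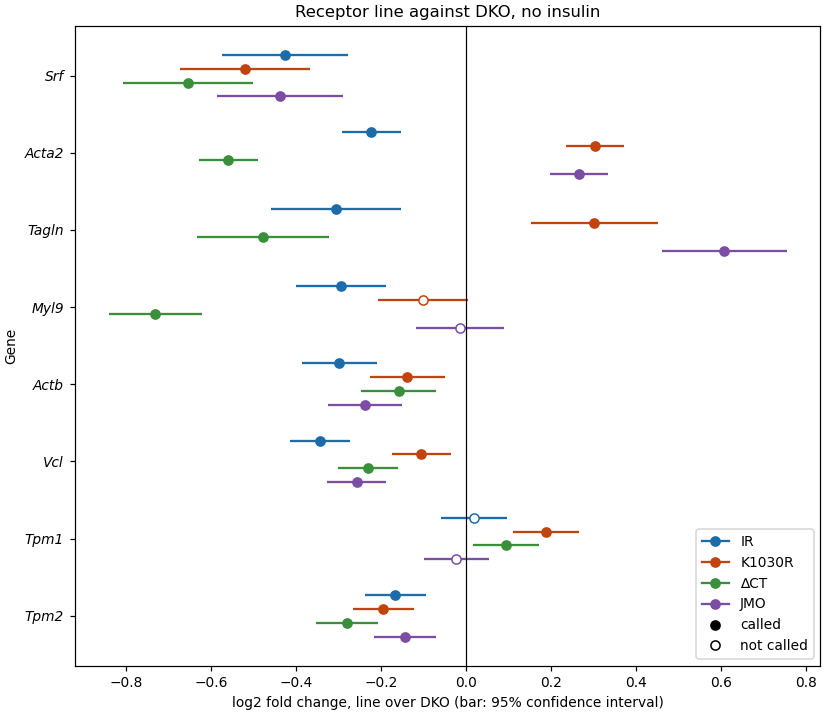
Log2 fold change of 8 genes in each receptor line over DKO cells without insulin (x axis), with 95% confidence intervals as bars. Filled points were called at an adjusted p of 0.05 and open points were not. Acta2 and Tagln lie left of 0 in IR and ∆CT cells and right of 0 in K1030R and JMO cells, and Srf, Actb, Vcl, and Tpm2 lie left of 0 in all 4 lines.

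The other members changed less. Vcl (chromosome 14:20929398-21033676, plus strand), which encodes the adhesion protein vinculin that links integrins to actin, had a mean of 529.6 ± 5.1 CPM (SD, n = 3) in DKO cells. Its log2 fold change against DKO was -0.34 in IR (SE 0.0345, adjusted p = 2.45e-10), -0.26 in JMO (SE 0.0345, adjusted p = 2.84e-07), -0.11 in K1030R (SE 0.0345, adjusted p = 0.0133), and -0.23 in ∆CT cells (SE 0.0345, adjusted p = 8.63e-07). The lowest DKO library (523.8 CPM) was above the highest library of any other group (516.5 CPM, in K1030R cells), though the call in K1030R cells was lost without K1030R replicate 2 (adjusted p = 0.0824) or 3 (adjusted p = 0.0701).

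Actb (chromosome 5:142903115-142906754, minus strand), the non-muscle β-actin often used as a reference transcript, had 3232 ± 46 CPM in DKO cells and was lower by 0.30 in IR, 0.24 in JMO, 0.14 in K1030R, and 0.16 in ∆CT cells. All 4 differences passed the test, that of K1030R cells not without K1030R replicate 2 (adjusted p = 0.0527), and they are from a gene with shared sequence. Tpm2 (chromosome 4:43514711-43523765, minus strand), β-tropomyosin, which lies along actin filaments, had 242 ± 10 CPM in DKO cells and was lower by 0.17 in IR, 0.14 in JMO, 0.19 in K1030R, and 0.28 in ∆CT cells, again past the test in all 4. Tpm1 (chromosome 9:67022590-67049406, minus strand), α-tropomyosin, went the other way where it changed. It rose by 0.19 in K1030R (SE 0.0378, adjusted p = 0.000105) and by 0.09 in ∆CT cells (SE 0.0378, adjusted p = 0.0412), and differed by 0.02 in IR and -0.02 in JMO cells, which did not pass. The call in ∆CT cells was lost with RLE scaling (adjusted p = 0.0554), library totals (adjusted p = 0.228), DESeq2 (adjusted p = 0.0557), the compared groups alone (adjusted p = 0.11), and without any of DKO replicates 2 and 3 and ∆CT replicates 1 and 2 (adjusted p from 0.0773 to 0.215). The 8 skeletal or cardiac muscle markers, mostly Tnnt2, summed to 22.8 to 25.7 CPM in DKO libraries and to 6.92 to 12.6 CPM in all others, a fall in the same lines as that of Srf, Actb, Vcl, and Tpm2, and their part in it was not tested.

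Actg2 (chromosome 6:83512905-83536265, minus strand) rested on 4 to 24 counts per library. It had 0.761, 1.19, and 0.961 CPM in DKO cells and 0.379, 0.350, and 0.673 CPM in ∆CT cells, a difference of -1.05 (SE 0.389, adjusted p = 0.0258) that was lost with DESeq2 (adjusted p = 0.056) or without any of DKO replicates 2 and 3 and ∆CT replicates 1 and 2 (adjusted p from 0.0551 to 0.0996). Its values of -0.45, -0.58, and -0.31 in IR, K1030R, and JMO cells did not pass. Cnn1 (chromosome 9:22099216-22109630, plus strand) had 0 to 12 counts per library and group means between 0.125 and 0.387 CPM, with 1 library at 0, which at this depth is too few to compare.

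The next comparison set the receptor lines against each other without insulin, which shows differences that do not rest on the DKO libraries. Acta2, Tagln, and Myl9 were each higher in both lines without kinase activity than in both lines with it. Between K1030R and IR cells, which differ by 1 substitution in the receptor, Acta2 was higher in K1030R by 0.53 (SE 0.0337, adjusted p = 6.59e-14), Tagln by 0.61 (SE 0.0727, adjusted p = 1.75e-06), and Myl9 by 0.19 (SE 0.0528, adjusted p = 0.00478, or 0.0567 without IR replicate 3). Vcl, Tpm1, and Actb were higher as well, by 0.24, 0.17, and 0.16, so that 6 of 9 genes were called higher and 0 lower, where 13.9% of all genes were called higher and 16.3% lower. Srf did not pass, at -0.09 with a 95% confidence interval from -0.25 to 0.06.

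Between JMO and IR cells, Tagln was higher in JMO by 0.91 (SE 0.0714, adjusted p = 1.22e-09) and passed the minimum fold of 1.5 (adjusted p = 0.000547), as 4.59% of all genes did. Acta2 was higher by 0.49, Myl9 by 0.28, and Vcl by 0.09, the last with a call that was lost without any 1 of 5 of the 6 libraries (adjusted p from 0.0585 to 0.171), which made 4 of 9 called higher and 0 lower, against 20.7% and 21.8% of all genes. Between JMO and ∆CT cells the differences were wider, with Tagln at 1.08 (2.12-fold, SE 0.0723, adjusted p = 1.16e-10), Acta2 at 0.82 (1.77-fold, SE 0.0339, adjusted p = 2.36e-20), and Myl9 at 0.72 (1.64-fold, SE 0.0538, adjusted p = 3.35e-13). Tagln and Acta2 passed the minimum fold there, as 4.5% of all genes did, and 5 of 9 genes were called higher and 1 lower, against 19.5% and 19.3% of all genes. Of these, Srf (0.22, adjusted p = 0.0242) and Tpm1 (-0.12, adjusted p = 0.0132) lost their calls without any of JMO replicate 3 and ∆CT replicates 1 and 2, at adjusted p from 0.0524 to 0.119. Srf lost its call also without JMO replicate 1 (adjusted p = 0.052) and with DESeq2 (adjusted p = 0.0511), and its difference was reversed, at -0.15, between the libraries with insulin. Tpm1 lost its call also with library totals (adjusted p = 0.0843) and with the compared groups alone (adjusted p = 0.0621).

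K1030R and ∆CT cells differed in few genes, since 1.95% of all genes were called lower and 1.49% higher in ∆CT than in K1030R cells, and 6 of 15402 (0.039%) passed the minimum fold. Acta2 was 1 of those 6, at -0.86 in ∆CT against K1030R cells (SE 0.034, minimum-fold adjusted p = 4.73e-07). Tagln was lower by 0.78 (SE 0.0736, adjusted p = 1.09e-06), Myl9 by 0.63 (SE 0.0549, adjusted p = 7.46e-10), and Vcl by 0.13 (adjusted p = 0.0326, lost without K1030R replicate 1 or 3 or ∆CT replicate 2 or 3, at 0.0544 to 0.259), so 4 of the 9 genes were called lower and 0 higher.

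Within each class of receptor the lines were not alike either. ∆CT was lower than IR for Acta2 by 0.34 (SE 0.0339, adjusted p = 2.9e-09) and for Myl9 by 0.44 (SE 0.0551, adjusted p = 1.96e-07), and Tagln differed by -0.17 (adjusted p = 0.106), which did not pass. In all, 4 genes were called lower and 2 higher in ∆CT than in IR cells, against 14.8% and 11.2% of all genes, and the count was 3 without ∆CT replicate 1 or 2. JMO was higher than K1030R for Tagln by 0.31 (SE 0.0695, adjusted p = 0.00155) and lower for Tpm1 by 0.21 and Vcl by 0.15, with 1 gene higher and 2 lower, against 17.4% and 18% of all genes. Acta2 differed by -0.04 between JMO and K1030R cells, with an interval from -0.11 to 0.03.

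The differences in Acta2, Tagln, and Myl9 between a line with and a line without kinase activity were of similar size when the libraries with insulin were compared in place of those without. They ran from 0.48 to 0.94 for Acta2, from 0.67 to 1.07 for Tagln, and from 0.27 to 0.78 for Myl9 in absolute log2 terms, each in the same direction and past the test. The summed smooth muscle markers, 8 genes of which Smtn made up most, did not follow this order: they were at 42.3 to 48.1 CPM in DKO, 51.2 to 55.7 in IR, 56.4 to 58.3 in K1030R, 51.2 to 54.8 in ∆CT, and 48.1 to 51.6 in JMO cells. Within the list, Synpo2 was higher than in DKO by 0.98 to 1.86 in all 4 lines, and Lmod1, a leiomodin of smooth muscle, by 0.64 in IR (adjusted p = 0.00313) and 0.84 in JMO cells (adjusted p = 0.000287). Others were lower than in DKO: Des by 0.65 in K1030R cells and Smtn by 0.20 in IR cells. Des was higher in JMO than in IR, K1030R, and ∆CT cells, by 0.64, 0.85, and 0.54. Smtn was higher in K1030R than in IR cells by 0.31, and higher in ∆CT than in IR cells by 0.23, the latter opposite to Acta2. These differences of Des and Smtn passed the test. Synpo2 differed by -0.87 in JMO against IR, -0.44 in JMO against ∆CT, and -0.25 in K1030R against IR cells. These passed the test and were opposite to Acta2 and Tagln, while ∆CT against K1030R cells (-0.19) did not pass. The 6 pericyte markers, mostly Cspg4, were at 103 to 111 CPM in DKO, 132 to 138 in IR, 132 to 134 in K1030R, 117 to 143 in ∆CT, and 94.9 to 102 in JMO cells. Within the pericyte list, Mcam was higher in K1030R than in IR cells by 0.92, and ∆CT differed from K1030R cells by -0.86. JMO cells had more Mcam than IR and ∆CT cells, by 0.59 and 0.53. These differences passed the test and had the directions of Acta2 and Tagln. Against DKO, Mcam was higher in all 4 lines, by 1.23 to 2.15, as was Rgs5, by 1.26 to 1.84. By contrast, Rgs5 was lower in K1030R than in IR cells (-0.58) and Cspg4 lower in JMO than in IR cells (-0.54). Markers of the preadipocyte list moved as well. Ly6a, a surface marker of progenitors also called Sca-1, differed from DKO cells in the same lines in which Srf was lower. Its values were -3.33 in IR, -2.06 in JMO, -3.67 in K1030R, and -3.96 in ∆CT cells. Ly6a was also higher in JMO than in IR and ∆CT cells, by 1.27 and 1.89, past the test. Cd34 was higher than in DKO by 1.81 in IR, 0.49 in JMO, 1.62 in K1030R, and 2.03 in ∆CT cells. Between lines, Cd34 differed by -1.32 in JMO against IR, -1.53 in JMO against ∆CT, and 0.41 in ∆CT against K1030R cells. Pdgfra differed by -0.72 in K1030R against IR, -0.33 in JMO against IR, and 0.47 in ∆CT against K1030R cells. These passed the test and were opposite to Acta2 and Tagln. Cd34 in K1030R against IR (-0.19) and Pdgfra in JMO against ∆CT cells (-0.08) did not pass. Fabp4, a fatty acid carrier of adipocytes with group means of 0.613 to 4.42 CPM, differed from DKO by -1.79 in IR, 0.83 in JMO, -0.85 in K1030R, and -1.496 in ∆CT cells, all past the test. It was higher in JMO than in IR cells by 2.62 (SE 0.235, adjusted p = 2.23e-11) and than in ∆CT cells by 2.33 (SE 0.228, adjusted p = 2.17e-10), and higher in K1030R than in IR cells by 0.95 (SE 0.277, adjusted p = 0.00827), the directions of Acta2 and Tagln, whereas ∆CT and K1030R cells differed by -0.65 (adjusted p = 0.214). Against DKO, Fabp4 in K1030R cells went the other way from Acta2 and Tagln, at -0.85 beside 0.30 for each of them. Pparg did not split the lines by kinase activity. Taking IR cells as the reference, it was higher by 0.97 with K1030R, by 0.69 with JMO, and by 0.73 with ∆CT, all past the test. Between JMO and ∆CT cells, Pparg differed by -0.04 (adjusted p = 0.866). The part of these markers in the differences of Acta2, Tagln, Myl9, and Srf was not tested. In bulk RNA, fewer cells of a kind and less transcript per cell cannot be told apart.

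**Figure D3:**
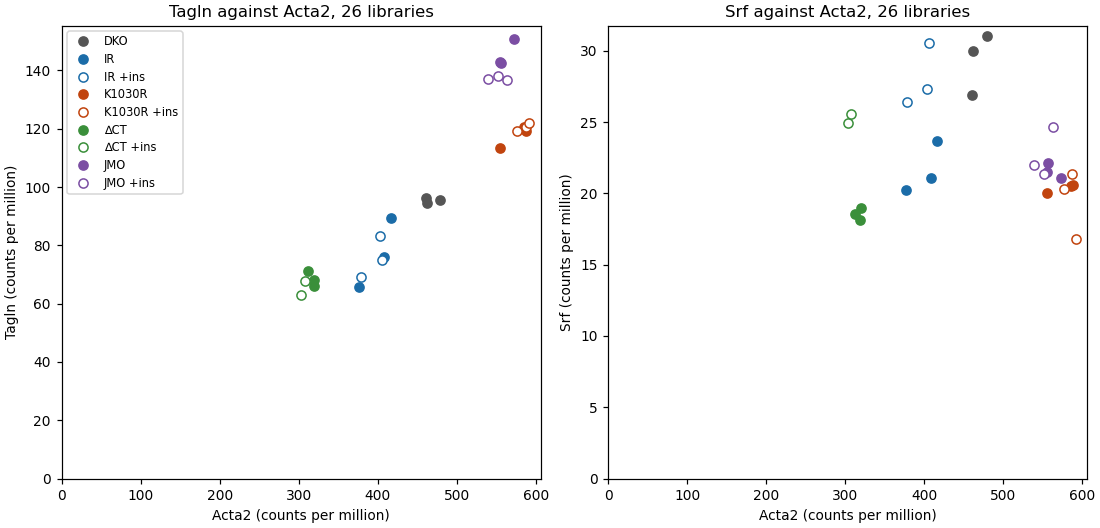
Tagln against Acta2 (left) and Srf against Acta2 (right), in CPM on linear axes from 0, in all 26 libraries coloured by line, with open points for insulin. Tagln rises with Acta2 from ∆CT through IR and DKO to K1030R and JMO cells, while Srf does not follow Acta2.

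Over the 9 group means, the Pearson correlation of log2 CPM was 0.946 between Acta2 and Tagln, 0.926 between Acta2 and Myl9, and 0.849 between Tagln and Myl9. These points share 5 lines, so they describe the lines and are not independent. Srf had correlations between -0.336 and 0.455 with the other genes tested, and its transcript therefore did not rank the groups as Acta2, Tagln, and Myl9 did. The targets did not share a single order either, with -0.143 between Acta2 and Actb. Further pairs with high values were Actg2 and Tpm2 at 0.844, Myl9 and Tpm2 at 0.814, and Actg2 and Myl9 at 0.801, of which those with Actg2 rest on few counts.

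The third comparison asked which genes 15 min of insulin changed. Srf rose in the 2 lines whose receptor keeps an active kinase, IR and ∆CT. None of the other 8 genes tested was called in any line by edgeR at the settings of the report. Actb in IR cells was called by DESeq2, and by edgeR with library totals as the scaling, without a filter, or with the replicate block. In IR cells Srf went from 23.7, 21.1, and 20.3 CPM to 27.3, 30.6, and 26.4 CPM, and in ∆CT cells from 18.1, 18.6, and 19.0 CPM to 24.9 and 25.6 CPM. The libraries with insulin did not overlap those without in either line. The log2 fold change was 0.37 in IR (1.29-fold, SE 0.0731, adjusted p = 0.00237) and 0.44 in ∆CT cells (1.36-fold, SE 0.0839, adjusted p = 0.00144), by edgeR's quasi-likelihood test.

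In K1030R cells Srf had 21.4, 20.3, and 16.8 CPM with insulin, a change of -0.06 with an interval from -0.22 to 0.10. In JMO cells it had 24.7, 21.4, and 22.0 CPM, a change of 0.08 with an interval from -0.08 to 0.23. The libraries of both lines overlapped between treatments. The insulin effect on Srf in K1030R cells differed from that in IR cells by -0.44 (interval -0.65 to -0.22, SE 0.107), which missed the threshold over all genes (adjusted p = 0.0675) but passed with library totals as the scaling (adjusted p = 0.0229), without a filter on low counts (adjusted p = 0.00257), and with the replicate number as a block (adjusted p = 0.0287). The difference was -0.30 between JMO and IR cells (adjusted p = 0.555) and 0.07 between ∆CT and IR cells (adjusted p = 1). A difference between the lines that respond and those that do not was therefore not established for Srf by the test used here.

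The call in ∆CT cells rested on 2 libraries with insulin. Without replicate 2 of that group it was 0.42 and no longer passed (adjusted p = 0.0607), in a fit that assumes the single remaining library varies like the others. With insulin, Srf in IR cells (28.1 ± 2.2 CPM, n = 3) overlapped the level of DKO cells without insulin (29.3 ± 2.1 CPM, n = 3).

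Insulin called 1 of 9 genes in IR cells, where 1.87% of all genes were called, and 1 of 9 in ∆CT cells, against 1.01%. It called 0 of 9 in K1030R cells, against 0.156% of all genes, and 0 of 9 in JMO cells, against 0.364%. At an unadjusted p under 0.05 there were 0 in K1030R cells, where 6.08% of all genes were, and 1 in JMO cells (Vcl, at -0.07), where 7.01% were, and DESeq2 and limma-voom called 0 in both. None of the 9 genes was called for a difference of insulin effects by edgeR at the settings of the report, DESeq2, or limma-voom. Of all genes, edgeR called 0.37% for K1030R against IR cells, 0.279% for JMO against IR, 0.00649% for ∆CT against IR, and 0.026% for JMO against K1030R. An unadjusted p under 0.05 was found for 1 gene in K1030R against IR cells (Srf), against 7.86% of all genes, for 3 in JMO against IR cells (Srf, Actb, and Tpm1), against 6.49%, and for 0 in the other two.

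The intervals bound the change of the structural genes to different degrees. For Acta2 the log2 change with insulin was -0.02 in IR, -0.03 in JMO, 0.02 in K1030R, and -0.05 in ∆CT cells, and the 95% confidence intervals reached no farther than -0.13 and 0.09. For Tagln the changes ran from -0.08 to 0.03, with intervals as far as -0.25 and 0.18, and for Myl9 from -0.11 to 0.01, with intervals as far as -0.24 and 0.12. The intervals reached -0.14 and 0.09 for Vcl and -0.12 and 0.09 for Tpm2, with changes from -0.07 to 0.02 and from -0.03 to 0.02. Tpm1 changed by -0.05 in JMO, 0.00 in ∆CT, 0.02 in K1030R, and 0.08 in IR cells, the last with an interval from 0.00 to 0.15 and an adjusted p of 0.33. Actb came nearest to a call, at 0.13 in IR cells (interval 0.05 to 0.22, adjusted p = 0.111). Actg2 could not be bounded, with an interval from -0.30 to 1.23 in K1030R cells.

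**Figure D4:**
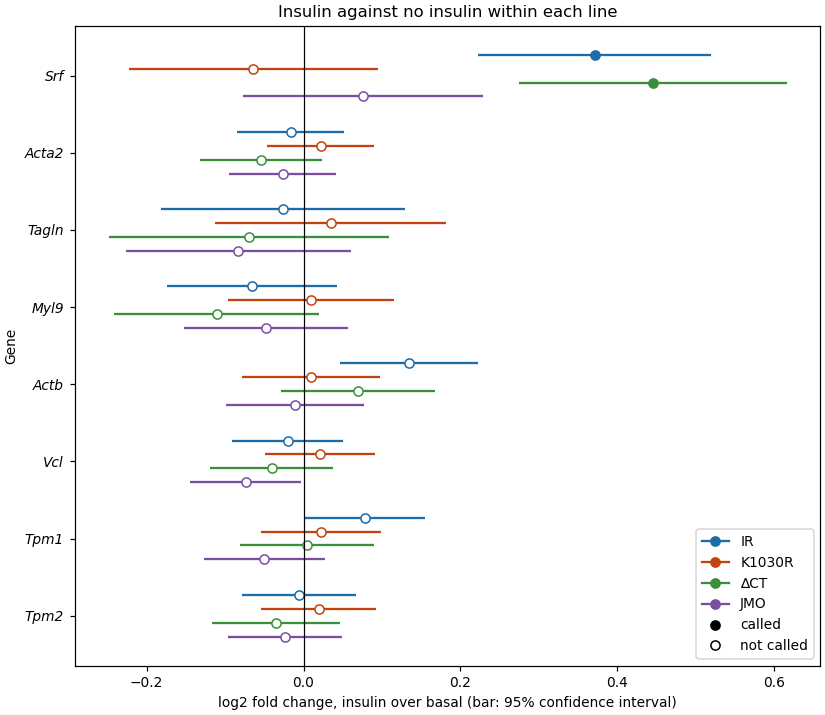
Log2 fold change of 8 genes with insulin over no insulin within each line (x axis), with 95% confidence intervals as bars. Filled points were called at an adjusted p of 0.05. Srf in IR (0.37) and ∆CT cells (0.44) are the filled points, and the values of the 7 other genes lie between -0.11 and 0.13.

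Other genes of the pathway were followed in 3 lists. Of 43 further cytoskeletal targets of SRF and MRTF, 41 were tested, and insulin called 2 in IR cells, Actg1 (γ-actin) at 0.19 (SE 0.0434, adjusted p = 0.0186) and Filip1l at 0.19 (SE 0.052, adjusted p = 0.0466). That count was 2 with DESeq2 and 1 with limma-voom, and it moved to between 0 and 5 when any 1 of the 6 libraries was left out: 0 without IR replicate 2 or IR with insulin replicate 1 or 3, 1 without IR replicate 1 or IR with insulin replicate 2, and 5 without IR replicate 3. It called 0 in K1030R, ∆CT, and JMO cells by edgeR, DESeq2, or limma-voom, with 1, 6, and 1 at an unadjusted p under 0.05. Of the 13 immediate early genes that SRF serves with ternary complex factors, insulin raised 13 in IR, 12 in ∆CT, 8 in JMO, and 3 in K1030R cells, with median log2 changes of 2.50, 2.53, 0.52, and 0.14. Of all genes, 1.4% were called higher in IR, 0.935% in ∆CT, 0.331% in JMO, and 0.11% in K1030R cells. The median over all genes was between -0.01 and 0.00 in these comparisons.

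Among 28 cofactors of SRF and upstream regulators of actin, insulin raised Rhob and Rnd3. Rhob, an early-response gene of a small GTPase, went from 79.2 ± 7.2 to 141.7 ± 5.7 CPM (SD, n = 3 each) in IR cells and from 68.0 ± 3.5 (n = 3) to 137.3 ± 0.038 CPM (n = 2) in ∆CT cells. Its log2 change was 0.84 in IR (SE 0.051, adjusted p = 1.99e-13), 1.01 in ∆CT (SE 0.0569, adjusted p = 2.77e-14), and 0.29 in JMO cells (SE 0.0557, adjusted p = 0.00838). Rnd3, which encodes an atypical small GTPase, rose by 0.40 in IR, 0.41 in ∆CT, and 0.25 in JMO cells. The count of 2 in JMO cells was 1 without JMO replicate 1 or 3 or JMO with insulin replicate 2 or 3. In K1030R cells 0 of the 28 were called by edgeR, DESeq2, or limma-voom, and 3 had an unadjusted p under 0.05, as did 6.08% of all genes. Of all genes, edgeR called 1.87% in IR, 1.01% in ∆CT, 0.364% in JMO, and 0.156% in K1030R cells.

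Against DKO without insulin, the further cytoskeletal targets went both ways, with 11 called higher and 24 lower in IR cells, 10 and 14 in K1030R, 10 and 19 in ∆CT, and 6 and 19 in JMO cells. In either direction that was 85.4% of the 41 in IR, 61% in JMO, 58.5% in K1030R, and 70.7% in ∆CT cells, where 49.8%, 34.3%, 41.6%, and 46.3% of all genes were called. By direction, 25.6% of all genes were called higher and 24.1% lower in IR, and 21.2% and 20.4% in K1030R cells. The shares were 23.4% and 22.9% in ∆CT and 16.9% and 17.4% in JMO cells. Synpo2, an actin-binding protein of muscle Z-discs, rose most, by 1.86 in IR, 0.98 in JMO, 1.61 in K1030R, and 1.42 in ∆CT cells. Filip1l fell by 0.97 in IR, 0.82 in ∆CT, and 0.70 in K1030R cells. Tes, a protein of focal adhesions, fell by 0.75 in IR, 0.72 in ∆CT, and 0.53 in JMO cells. Mical2, an enzyme that oxidises actin and so favours MRTF activity, fell by 0.67 in K1030R and in JMO cells. Here and below, a gene's difference from DKO is given only for lines where it ranked among the 2 largest rises or falls. A line left out may have changed as well. The medians of this list were -0.16, -0.03, -0.09, and -0.08 in IR, K1030R, ∆CT, and JMO cells.

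Of the cofactors and actin regulators, 6 were called higher and 11 lower in IR cells, 9 and 12 in K1030R, 7 and 15 in ∆CT, and 3 and 14 in JMO cells. This was 60.7% of the 28 in IR, 60.7% in JMO, 75% in K1030R, and 78.6% in ∆CT cells, beside the same shares of all genes. Rhob fell in all 4 lines, by 0.53 in IR, 1.06 in JMO, 0.75 in K1030R, and 0.75 in ∆CT cells. Tmsb4x, which encodes the actin-sequestering peptide thymosin β4, rose by 0.74 in IR (SE 0.0402, adjusted p = 3.2e-17), 0.49 in K1030R (SE 0.0406, adjusted p = 4.13e-12), and 0.22 in JMO cells (SE 0.0407, adjusted p = 5.11e-05). Mrtfa, the gene of MRTF-A, was higher in JMO cells by 0.16 (SE 0.0417, adjusted p = 0.00257), with 118.3 ± 4.0 CPM against 105.7 ± 2.3 CPM in DKO cells. Myocd, the muscle-restricted cofactor myocardin, was higher in K1030R cells by 0.90 (SE 0.284, adjusted p = 0.01), at levels of 1.44 ± 0.16 against 0.761 ± 0.079 CPM. Between lines without insulin, it differed by 1.48 in K1030R against IR and -1.16 in ∆CT against K1030R cells, the directions of Acta2. It differed by -0.85 in JMO against K1030R cells, and these 3 passed the test. In JMO against IR (0.62) and against ∆CT cells (0.30) it did not pass. Of the immediate early genes, 8 were lower and 2 higher in IR cells, 11 lower and 0 higher in K1030R and in ∆CT cells, and 7 lower and 1 higher in JMO cells. This was 76.9% of the 13 in IR, 61.5% in JMO, and 84.6% in K1030R and in ∆CT cells, again beside 49.8%, 34.3%, 41.6%, and 46.3% of all genes. The largest fall was that of Ccn2, a matrix protein gene also served by MRTF and YAP, which fell by 1.75, 1.73, 2.12, and 1.45 in the order IR, K1030R, ∆CT, and JMO.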

How the data were processed

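Polyadenylated RNA of 26 libraries was measured by sequencing. Per the study's methods, fastp trimmed the single-end reads, kallisto estimated the abundance of Ensembl transcripts of the mouse, and tximport added these up per gene. The values deposited by the authors are expected counts, neither filtered nor scaled. Of these values 79.9% are exactly whole.

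Counts were rounded and scaled with TMM factors. Genes were kept if their CPM exceeded 0.5 in 4 or more libraries (15402 of 52962) and were fitted in edgeR 4.0.16 under R 4.3.3 by a robust quasi-likelihood model of all 26 libraries with 1 mean per group, and p-values were adjusted by Benjamini-Hochberg over all genes tested. A second call used glmTreat against a minimum fold of 1.5. CPM use TMM-scaled totals and are given per library or as mean ± SD, and intervals are 95% confidence intervals of the model. Gene names were matched for 51916 IDs. Positions are from GENCODE mouse release 21 on GRCm38, and lengths and 31-base sequences from its transcripts. The genes named are the 10 members, from each list at most the 2 called genes that rose and the 2 that fell most in each insulin effect and each comparison with DKO, the genes whose pattern was most and least like that of the members (mean CPM of at least 10), and Insr and Igf1r; Pdgfra, Pdgfrb, Smtn, Cspg4, and other markers were named after their values were seen. The members, lists, tests, and alternatives were chosen with earlier results of these data known.

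The biological coefficient of variation was 4.44%, and replicates differed beyond counting error in all 25 pairs (chi-square 2.92 to 23.6 for each degree of freedom). On simulated data for insulin in IR cells over 15402 genes, 50 of 67 genes seeded at 1.25-fold were called. So were 63 of 67 at 1.5-fold, 66 of 66 at 2-fold, and 4 of 15202 genes not seeded. Seeds were drawn only from genes above a floor of counts that Actg2 did not reach, so these rates do not cover genes with few counts. Alternatives used DESeq2 1.42.0 and limma 3.58.1, other scalings, filters, and rounding, a threshold of 0.01, fits of the compared groups alone, libraries with insulin in place of those without, a replicate block, and each library left out in turn.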

Additional observations from a re-analysis of the deposited data

Results flagged for a closer look

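None of the 9 genes tested had an insulin effect called different between lines at the settings of the report, though Srf passed for K1030R minus IR with library totals, without a filter, and with the replicate block. Among the listed genes of the pathway, insulin effects differed between lines by a test of the difference itself (edgeR's quasi-likelihood test, Benjamini-Hochberg adjusted over all genes). Of the 13 immediate early genes, 12 were called for K1030R minus IR and 11 for JMO minus IR, where 0.37% and 0.279% of all genes were called. Of the genes called, Egr3, Nr4a1, Junb, Klf6, and Mcl1 had differences from -2.69 to -0.41 and from -2.49 to -0.37. For Rhob, the effect in K1030R cells minus that in IR cells was -0.62 on the log2 scale (adjusted p = 1.72e-06), and the effect in JMO minus IR cells was -0.55 (adjusted p = 3.36e-05). For the other called immediate early genes, K1030R minus IR was -4.10 for Fos, -3.19 for Egr2, -2.93 for Ier2, -2.36 for Egr1, -1.94 for Ccn1, -1.62 for Fosb, and -0.87 for Dusp1. JMO minus IR was -3.24 for Fos, -2.49 for Egr2, -2.24 for Ier2, -1.69 for Ccn1, -1.66 for Egr1, and -1.47 for Fosb. Egr1 responded more in ∆CT than in IR cells, by 0.77 (adjusted p = 0.00063), and more in JMO than in K1030R cells, by 0.70 (adjusted p = 0.00128).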

How the results depend on the processing

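Depth limited Cnn1 and Actg2, and a single cell line per receptor and 2 libraries of ∆CT cells with insulin limited the rest. Of the 18 counts of called members, those that changed by more than 1.5 times did so as follows. Against a minimum fold of 1.5, the count fell to 0 for IR, K1030R, and JMO against DKO, for K1030R and ∆CT against IR, for JMO against K1030R, and for insulin in IR and ∆CT cells, to 1 for JMO against IR and for ∆CT against K1030R, and to 2 for JMO against ∆CT, alike with edgeR and limma TREAT. For ∆CT against DKO it fell to 1 with edgeR and 0 with limma TREAT. For insulin in IR cells it was 2 with DESeq2, with library totals, without a filter, and with the replicate block, as Actb was added. For ∆CT against IR it was 2 with the compared groups alone and at a threshold of 0.01, and 3 with insulin libraries, which gave 6 for JMO against K1030R.

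The insulin effect of K1030R minus IR had 1 called member (Srf) with library totals, without a filter, and with the replicate block. Same-numbered libraries did not vary together (median residual correlation -0.00111, range -0.108 to 0.0959), and the block moved no further count of members by over 1.5 times, though Actb passed with it in JMO against K1030R cells (adjusted p = 0.0195). Leaving out each library gave 0 to 1 for that effect (1 without IR replicate 1 or IR with insulin replicate 3 or K1030R with insulin replicate 1), 3 to 6 for ∆CT against IR (3 without ∆CT replicate 1 or 2), and 0 to 1 for insulin in ∆CT cells (0 without replicate 2 with insulin). The median over all genes moved by less than 0.1 under every scaling.

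With libraries given insulin, Srf reversed to -0.15 in JMO against ∆CT and 0.37 in ∆CT against K1030R, and Actb to -0.084 in JMO against IR. Of these only the first had been called. Values of Srf that had not been called also changed sign, to 0.029 in JMO against IR with library totals, and with libraries left out from -0.056 to 0.062 in JMO against IR, from -0.13 to 0.033 for insulin in K1030R cells, and from -8.82e-06 to 0.14 for the insulin effect of ∆CT minus IR. The causes were not tested.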

Other observations

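Some genes outside the group varied with the mean of its 9 tested genes over the 26 libraries. That mean weights each gene alike, Actg2 with its few counts included, and follows some members better than others. Its Pearson correlation was 0.798 with Myl9, 0.736 with Acta2, 0.535 with Actb, 0.321 with Srf, and 0.178 with Tpm1. Against the mean standardised log2 CPM of the 9 genes tested, the highest Pearson correlations among 9689 other genes with a mean CPM of at least 10 were those of Axl (0.874), Cnn2 (0.857), Samd4 (0.853), Cald1 (0.846), and Hk2 (0.836). Axl is a receptor tyrosine kinase. Cnn2 and Cald1, both on the list of further cytoskeletal targets, encode actin-binding proteins of the same calponin and caldesmon families as smooth muscle markers. By Spearman correlation the genes from Axl to Hk2 ranked 2, 3, 4, 6, and 9, in the order given. The lowest correlations were those of Ift80 (-0.839), Plcb1 (-0.824), and Wdr19 (-0.824), of which Ift80 and Wdr19 encode proteins of intraflagellar transport in cilia. The mean itself was highest in DKO cells (0.884) and lowest in ∆CT cells without insulin (-0.837), and libraries of a line share its state, so these values are a description.

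Srf alone varied with other genes: Errfi1 (0.89), Ppp1r18 (0.864), and Jun (0.851) had the highest correlations with it over the same libraries. Errfi1 encodes a feedback inhibitor of receptor tyrosine kinases and Jun an AP-1 transcription factor, and both are early-response genes. By Spearman correlation they ranked 1, 13, and 2.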
